A study of Homo sapiens with 24 samples.

Results

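The basal, stress and mucosal keratins of stratified squamous epithelium were followed in head and neck cancer cells treated with 2 dietary polyphenols. The set held 10 genes picked by symbol: KRT5, KRT14 and KRT15 as basal keratins, KRT6A, KRT6B, KRT6C, KRT16 and KRT17 as stress keratins, and KRT4 and KRT13 as mucosal keratins. All 10 were found among the 60617 genes of the count table and passed the filter on low counts together with the rest of the 15476 genes tested. RNA-seq was performed on MDA686TU (686Tu) cells, a squamous cell carcinoma line of the head and neck, in 4 groups of 6 libraries. One group was left untreated, one received EGCG (epigallocatechin-3-gallate, the main catechin of green tea) at 40 µM, one received resveratrol (a stilbene of grapes) at 15 µM, and one was given the 2 together at those doses, with 24 h of exposure throughout. All cells grew in DMEM/F12 with fetal bovine serum. The resveratrol stock was made up in DMSO, and water was the solvent of EGCG. Whether the untreated cells received DMSO is not given in the sources used here, so resveratrol and its solvent cannot be told apart. The study used 1 cell line for this experiment, and nothing says whether the 6 libraries of a group came from separate cultures on separate days, so p-values measure the spread between these samples.

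Keratins are the intermediate filament proteins of epithelial cells. A type I chain, which is acidic, always pairs with a type II chain, which is basic or neutral. KRT5 with KRT14 is the pair of the basal layer, KRT6 chains with KRT16 or KRT17 appear in wounds, in hyperproliferation and in squamous carcinomas, and KRT4 with KRT13 is the pair of the suprabasal layers of non-cornified oral and esophageal mucosa. KRT15 is a type I keratin of basal cells and of hair follicle stem cells. The type II genes of the set lie in a cluster on chromosome 12 and the type I genes in another on chromosome 17.

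Library totals ran from 7034872 to 11735574 counts. The identity of the cells was checked against marker lists, and all 7 squamous markers (among them TP63, CDH1 and DSG3) had counts in every library. In the fibroblast list, THY1 was at 0 in all 24 libraries and DCN and COL3A1 stayed at or under 1.06 normalized counts, whereas COL1A1 was at 875 to 1718 in every library. The summed fibroblast list moved with treatment, from 1117-1349 in untreated cells and 898-1114 with EGCG to 1314-1559 with resveratrol and 1526-1755 after both agents. COL1A1 held most of this sum. Its medians were 1155, 974, 1482 and 1692 in these groups, beside 1180, 1000, 1513 and 1723 for the list. The summed squamous markers other than KRT5 and KRT14 were at 20584-21690 in untreated cells, 21085-22352 with EGCG, 21357-21924 with resveratrol and 22827-23908 after both agents. A summed list of mesenchymal genes was at 1653-1845 in untreated cells, 1605-1820 with EGCG, 1406-1499 with resveratrol and 1543-1744 after both agents. FN1, at 1037 to 1357 over all libraries, held most of that sum. The part of these markers in the results below was not tested. The summed leukocyte, endothelial and melanocyte lists stayed at or under 10.5, 20.9 and 17.3. Replicates 1 to 3 of each group had 0.249% to 0.326% of their counts on mitochondrial genes and replicates 4 to 6 had 0.448% to 0.775%. No label names this split.

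Several of these genes are close copies of each other, which bears on how far the counts of one can be told from another. The reads were 50 bases long at each end. Of all 50-base windows of its transcript, KRT4 shared none with another annotated transcript, and KRT15 and KRT5 had 99.0% and 95.5% to themselves. This share was 81.8% for KRT13, 81.7% for KRT17, 78.2% for KRT16, 75.8% for KRT14, 60.8% for KRT6A, 53.4% for KRT6B and 46.9% for KRT6C. KRT13 shared 17.2% of its windows with an overlapping long non-coding RNA of the opposite strand, which had 0 counts, and 1.02% with the keratin KRT15. How the authors' counting treated reads that match several genes is not given in the sources used here. The 3 KRT6 genes had coding sequences that were 97.5% to 98.5% identical in pairs. The following 60 coding bases of their exon 2 are shown because they are among the stretches where the copies differ most, and capitals mark the 9 positions where the 3 genes are not all alike (GRCh38, minus strand, chr12:52491555-52491614 for KRT6A, chr12:52450439-52450498 for KRT6B and chr12:52472099-52472158 for KRT6C).
KRT6A: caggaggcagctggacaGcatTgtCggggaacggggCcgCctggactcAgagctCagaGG
KRT6B: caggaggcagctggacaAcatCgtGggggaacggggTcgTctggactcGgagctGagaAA
KRT6C: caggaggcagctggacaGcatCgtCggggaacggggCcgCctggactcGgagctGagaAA

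The type I genes KRT14, KRT16 and KRT17 were less alike, with coding identities of 87.6% for KRT14 and KRT16, 83.8% for KRT14 and KRT17, and 78.1% for KRT16 and KRT17.

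In untreated 686Tu cells the set fell into 7 abundant and 3 sparse keratins. Levels are compared between genes as FPKM, the normalized count divided by 1 fixed value per gene. The length behind that value is not given in the sources used here. In untreated cells KRT15 had a lower FPKM than KRT4. Its mean normalized count was higher (115 beside 108) and its annotated transcript shorter (1712 beside 2141 bases). The order of FPKM between genes thus rests on the authors' lengths. KRT14 stood at 1654 ± 39.5 FPKM (SD, n = 6) and KRT6A at 1565 ± 44.5, and the ranges of these neighbours overlapped. KRT5 followed at 1275 ± 26.5, KRT17 at 874 ± 22.6 and KRT6C at 492 ± 26.7, each without overlap with the next. KRT6B at 223 ± 20.3 and KRT16 at 204 ± 19.9 overlapped. Among all 60617 genes, KRT14, KRT6A, KRT5 and KRT17 ranked 4, 6, 12 and 29 by mean FPKM, and KRT6B and KRT16 ranked 246 and 283. The mucosal pair and KRT15 were far lower, with KRT13 at 5.14 ± 0.639 FPKM, KRT4 at 4.29 ± 0.775 and KRT15 at 2.21 ± 0.156. KRT13 and KRT4 overlapped, and KRT15 was below both in FPKM. In bulk RNA, fewer cells of a type and less RNA per cell cannot be told apart.

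The 10 keratins together took up a smaller share of the RNA after resveratrol and after the combination. They held 1.75% to 1.89% of all counts in untreated libraries (median 1.83%), 1.72% to 1.89% with EGCG (median 1.76%), 1.56% to 1.64% with resveratrol (median 1.61%) and 1.47% to 1.64% with the combination (median 1.5%). The untreated and EGCG libraries overlapped, and both lay above all resveratrol and combination libraries.

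**Figure D1:**
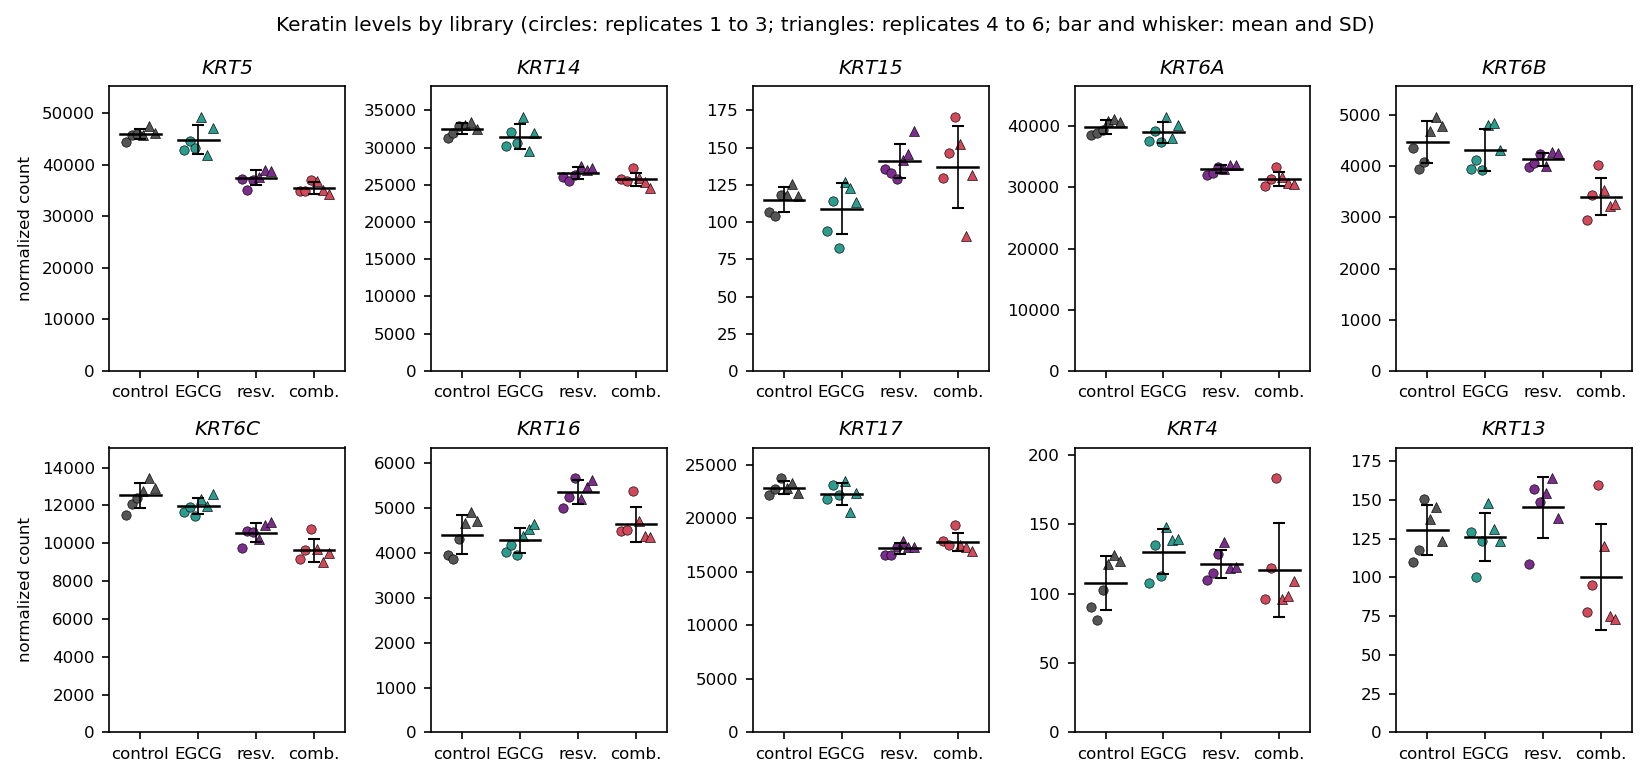
Normalized counts of the 10 keratins (vertical axis, one panel a gene) in each of the 24 libraries by treatment group (horizontal axis), with the group mean and SD. KRT5, KRT14, KRT6A, KRT6C and KRT17 are lower in every resveratrol and combination library than in any untreated library, KRT16 and KRT15 are higher in every resveratrol library, and combination replicate 3 is the highest combination library for KRT4 at 183.

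With resveratrol, the abundant basal and stress keratins KRT5, KRT14, KRT6A, KRT6C and KRT17 fell (-24.6% to -15.5%), while KRT16 and KRT15 rose. By edgeR's quasi-likelihood test over all genes, 5 of the 10 keratins were lower, 2 were higher and 3 were not called. A call needed p under 0.05 and, after Benjamini-Hochberg adjustment, an adjusted p under 0.1. Of all genes tested, 56.9% were called, 28.9% as higher and 28.0% as lower. The 7 called keratins showed no overlap between the groups, as did 31.1% of all genes tested. The median change over the 10 keratins was -0.18 on the log2 scale beside 0.00371 over all genes tested.

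Among the basal keratins, KRT5 (ENSG00000186081, GRCh38 chr12:52514575-52520530, minus strand) had normalized counts of 44518 to 47513 in untreated libraries (median 45906.5) and 35197 to 39056 with resveratrol (median 37483). Its partner KRT14 (ENSG00000186847, chr17:41582279-41586895, minus strand) went from 31340-33504 (median 32724) to 25503-27551 (median 26612). Each of the 6 resveratrol libraries was below all untreated libraries for both genes. The log2 fold change was -0.29 ± 0.0299 (SE) for KRT5 with an adjusted p of 2.77e-10, and -0.29 ± 0.0281 for KRT14 with an adjusted p of 7.35e-11. KRT5 fell by 18.2% and KRT14 fell by 18.1%, and the exact two-sided permutation p was 0.00216 for each, the smallest that 6 libraries against 6 can give.

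KRT15 (ENSG00000171346, chr17:41513745-41522529, minus strand) moved the other way from the basal pair. It had 104 to 126 normalized counts in untreated libraries (median 118) and 129 to 162 with resveratrol (median 139), with no overlap. Its log2 fold change was 0.29 ± 0.103 (adjusted p = 0.0172, edgeR), a rise of 22.3%. KRT15 was the least abundant keratin of the set in FPKM, and its change rests on far fewer counts than that of KRT5 or KRT14. An annotated microRNA gene, MIR6510, lies within KRT15 on the same strand and had no counts.

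Of the type II stress keratins, KRT6A (ENSG00000205420, chr12:52487176-52493257, minus strand) was at 38510 to 41244 normalized counts in untreated libraries (median 40102) and 32093 to 33687 with resveratrol (median 33165). KRT6C (ENSG00000170465, chr12:52468516-52473805, minus strand) was at 11513 to 13450 (median 12586) and 9753 to 11137 (median 10630). Both genes were lower in every resveratrol library than in any untreated one. KRT6A fell by 17.2% (log2 fold change -0.27 ± 0.0259, adjusted p = 4.26e-11) and KRT6C fell by 15.5% (-0.24 ± 0.0374, adjusted p = 1.09e-06). KRT6B (ENSG00000185479, chr12:52446651-52452146, minus strand) had 3957 to 4974 counts untreated (median 4527) and 3992 to 4280 with resveratrol (median 4152), and the groups overlapped. Its log2 fold change of -0.11 ± 0.0582 was not called (adjusted p = 0.118), with a 95% interval from -0.23 to 0.00959. In replicates 4 to 6 alone KRT6B was lower (-0.20, adjusted p = 0.000159), and in replicates 1 to 3 alone it was not called (-0.0037, adjusted p = 0.973). It was also called with every gene of at least 1 count in the fit (-0.11, adjusted p = 0.00572), without untreated replicate 2 (-0.14, adjusted p = 0.0433), without untreated replicate 3 (-0.13, adjusted p = 0.0595) and with a term for replicates 1 to 3 against 4 to 6 (-0.10, adjusted p = 0.0714). Because the 3 genes share many windows, their counts were also summed, and the sum fell by 0.25 on the log2 scale (adjusted p = 2.14e-09).

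The type I stress keratins parted. KRT17 (ENSG00000128422, chr17:41619442-41624842, minus strand), which is induced in wounded epidermis and in many squamous carcinomas, had 22167 to 23762 normalized counts untreated (median 22778) and 16557 to 17905 with resveratrol (median 17329). All resveratrol libraries were below all untreated libraries. KRT17 fell by 24.6% (log2 fold change -0.41 ± 0.0293, adjusted p = 3.22e-14), which was the lowest log2 fold change of the 10 keratins. KRT16 (ENSG00000186832, chr17:41609778-41615899, minus strand), the other type I partner of the KRT6 chains, had 3876 to 4921 counts untreated (median 4485) and 4995 to 5672 with resveratrol (median 5362). Here every resveratrol library was above every untreated library. The log2 fold change was 0.29 ± 0.0528 (adjusted p = 1.8e-05), a rise of 22.2%.

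KRT16 was called higher with resveratrol on its own row, but not when summed with its annotated pseudogenes. The genome holds annotated pseudogenes of KRT16 and KRT17, of which 10 passed the filter, and the 6 KRT16 pseudogenes together had 3641 ± 271 normalized counts in untreated libraries (n = 6) beside 4406 ± 430 for KRT16 itself. With resveratrol the KRT16 pseudogenes stood at 3125 ± 40.3 together. All 10 pseudogenes were lower with resveratrol, with a median log2 fold change of -0.27, where 28.0% of all tested genes were lower. Several share sequence and are not separate results. KRT17P1 shared 76.6% of its windows with KRT17P2, and KRT16P3 shared 71.3% with KRT16P1. Fewer windows were shared with KRT16, at 15.4% for KRT16P3, 8.01% for KRT16P2 and 6.94% for KRT16P1. KRT16P4, KRT16P5 and KRT16P6 shared 5.92%, 4.86% and 0.581% with KRT16, and more with KRT14 (19.2%, 20.1% and 6.90%). KRT16 had 78.2% of its windows to itself. The sum thus also adds counts from sequence that KRT16 lacks. Whether shared reads had a part in the KRT16 rise was not tested. KRT16P6 was at -0.35 ± 0.0637 (adjusted p = 1.62e-05) and KRT17P2 at -0.46 ± 0.0495 (adjusted p = 7.9e-10). KRT16 summed with its 6 pseudogenes had 7113 to 8741 counts untreated and 8081 to 8829 with resveratrol, with overlap. The log2 fold change of this sum was 0.08 ± 0.0451 and was not called (adjusted p = 0.129). Against EGCG, the sum was higher with resveratrol (0.17 ± 0.0451, adjusted p = 0.00155). KRT17 summed with its annotated pseudogenes had the same log2 fold change as alone (-0.41 ± 0.0294, adjusted p = 3.28e-14). Summed into a single row, the 3 genes KRT14, KRT16 and KRT17 fell by 0.28 on the log2 scale (adjusted p = 6.63e-11), a sum in which KRT14 and KRT17 hold most counts.

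**Figure D2:**
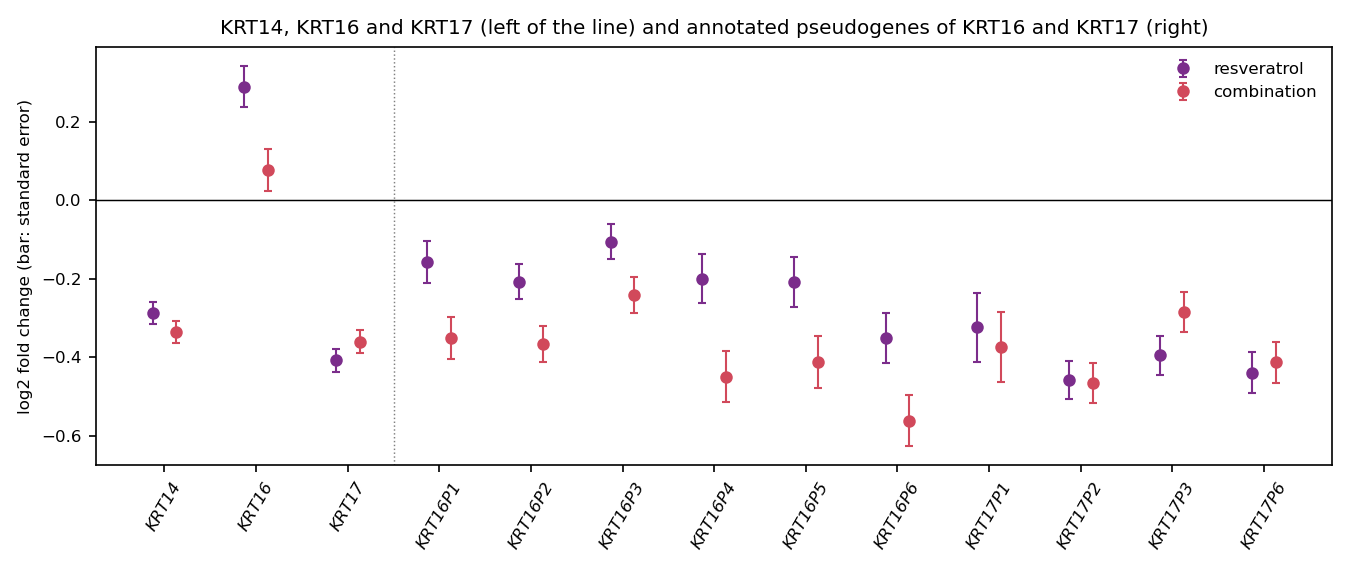
Log2 fold change against untreated cells with its standard error (vertical axis) for KRT14, KRT16 and KRT17 and for the 10 tested pseudogenes (horizontal axis), after resveratrol (purple) and after the combination (red). KRT16 lies above 0 at 0.29 with resveratrol, while KRT14, KRT17 and all 10 pseudogenes lie below 0 with both treatments.

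The mucosal keratins did not pass the test with resveratrol. KRT13 (ENSG00000171401, chr17:41500981-41505705, minus strand) had 110 to 150 normalized counts untreated (median 131) and 109 to 164 with resveratrol (median 151), with a log2 fold change of 0.16 ± 0.126 (adjusted p = 0.306). KRT4 (ENSG00000170477, chr12:52806549-52814116, minus strand) had 80.9 to 128 untreated (median 112) and 110 to 137 with resveratrol (median 119), with a log2 fold change of 0.18 ± 0.127 (adjusted p = 0.254). The groups of both genes overlapped. The 95% intervals ran from -0.10 to 0.41 for KRT13 and from -0.08 to 0.43 for KRT4, so a change of about the size seen in KRT16 cannot be told from none at these counts. An annotated long non-coding RNA on the opposite strand overlaps KRT13 and was at 0 counts in the table.

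**Figure D3:**
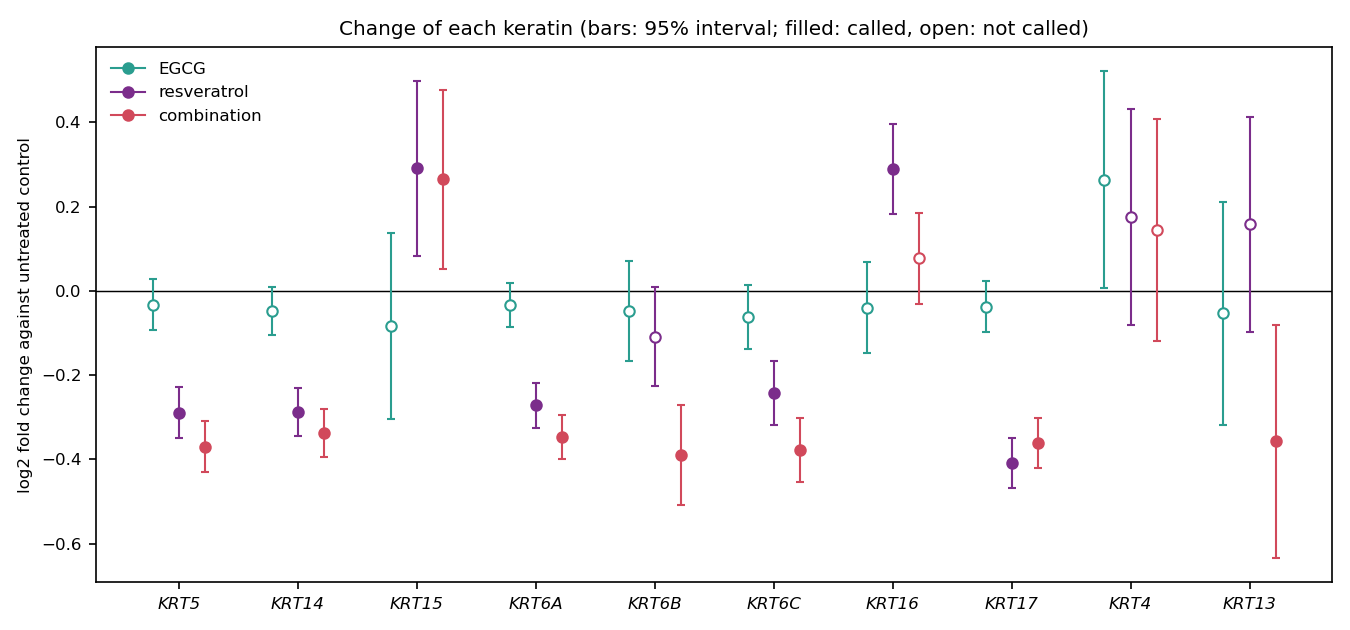
Log2 fold change of each keratin against untreated cells with its 95% interval (vertical axis) by gene (horizontal axis) for the 3 treated groups, filled where called. For EGCG no keratin is called, and for resveratrol and the combination KRT5, KRT14, KRT6A, KRT6C and KRT17 lie between -0.24 and -0.41.

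With EGCG alone none of the 10 keratins passed the test. No keratin was called higher or lower in edgeR, and DESeq2 also called none, beside 1.76% of all genes tested in edgeR. KRT4 was the 1 keratin with an unadjusted p under 0.05 in edgeR (adjusted p = 0.472, exact permutation p = 0.0649). It had 108 to 148 normalized counts with EGCG (median 137), and 4 of the 6 EGCG libraries were above all untreated libraries. Its log2 fold change was 0.26 ± 0.127. The other 9 keratins had log2 fold changes from -0.08 to -0.03. For KRT5 and KRT6A the 95% intervals ran from -0.09 to 0.03 and from -0.09 to 0.02, so a change of the size seen with resveratrol lay outside them. The intervals were wider for the sparse keratins, from 0.0068 to 0.52 for KRT4, from -0.32 to 0.21 for KRT13 and from -0.30 to 0.14 for KRT15.

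With the combination 7 keratins were lower, 1 was higher and 2 were not called, where 59.8% of all genes tested were called, 29.9% in each direction. For 5 keratins every combination library was below every untreated one, beside 16.3% of all genes tested. The median over the 10 keratins was -0.35 on the log2 scale beside -0.00151 over all genes tested. KRT5 was at 34339 to 36973 normalized counts (median 35014) and KRT14 at 24537 to 27230 (median 25663), each library below all untreated libraries. KRT5 fell by 22.6% (log2 fold change -0.37 ± 0.0299, adjusted p = 4.77e-13) and KRT14 fell by 20.8% (-0.34 ± 0.0281, adjusted p = 1.03e-12). KRT15 had 90.6 to 171 counts (median 139), with 5 of 6 libraries above all untreated libraries and 1 below them. Its log2 fold change of 0.27 ± 0.105 was called by edgeR (adjusted p = 0.0301), while the exact permutation p was 0.134. Without combination replicate 3, which had the highest KRT15 count, the value was 0.18 and the call was lost (adjusted p = 0.136).

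All 3 KRT6 genes were lower with the combination. KRT6A had 30274 to 33365 normalized counts (median 31080) and KRT6C 9008 to 10738 (median 9564), and neither overlapped with untreated cells. KRT6B had 2960 to 4030 (median 3352), with 5 of 6 libraries below all untreated libraries and replicate 3 within their range. The log2 fold changes were -0.35 ± 0.0259 for KRT6A (adjusted p = 5.83e-14), -0.38 ± 0.0374 for KRT6C (adjusted p = 8.17e-11) and -0.39 ± 0.0586 for KRT6B (adjusted p = 6.32e-07). KRT17 had 16989 to 19335 counts (median 17508), all below untreated cells, and fell by 22.1% (log2 fold change -0.36 ± 0.0293, adjusted p = 5.35e-13).

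KRT16 was not called with the combination. It had 4354 to 5391 normalized counts (median 4503), which overlapped with untreated cells except for replicate 3 at 5391. The log2 fold change was 0.08 ± 0.0529 (adjusted p = 0.219), with a 95% interval from -0.03 to 0.18. It was called without untreated replicate 5 (0.13, adjusted p = 0.0372). Summed with its 6 pseudogenes, KRT16 had 6951 to 8434 counts with the combination and the sum was lower than in untreated cells (log2 fold change -0.12 ± 0.0452, adjusted p = 0.023). The 10 pseudogenes, several of which share sequence with each other, were all lower with the combination. Their median was -0.39, where 29.9% of all genes tested were lower.

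Of the mucosal pair, KRT13 was lower and KRT4 was not called. KRT13 had 77.8, 94.9, 160, 120, 74.8 and 73.4 normalized counts in replicates 1 to 6, so that 4 libraries were below all untreated libraries and replicate 3 was above them. The log2 fold change was -0.36 ± 0.136 (adjusted p = 0.0254, edgeR), and the exact permutation p was 0.0584. The call was lost without combination replicate 6 (-0.28, adjusted p = 0.087 with an unadjusted p of 0.0507) and rested on replicates 4 to 6 (-0.60, adjusted p = 0.000417), since replicates 1 to 3 alone gave -0.14 (adjusted p = 0.56). KRT4 had 95.8, 118, 183, 96.4, 98.6 and 109 counts, and replicate 3 stood apart. Its log2 fold change was 0.14 ± 0.129 (adjusted p = 0.355).

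The addition of EGCG to resveratrol was tested directly. The combination was lower than resveratrol alone for 5 of the 10 keratins and higher for none, where 7.86% of all genes tested were called, 4.01% as higher and 3.86% as lower. The 5 were 4 stress keratins and 1 mucosal keratin. KRT13 fell by 30.0% from 109-164 to 73.4-160 normalized counts (log2 fold change -0.51 ± 0.133, adjusted p = 0.0163), KRT6B fell by 17.7% (-0.28 ± 0.0586, adjusted p = 0.00231) and KRT16 fell by 13.7% (-0.21 ± 0.0528, adjusted p = 0.0118). KRT6C was at -0.13 ± 0.0374 (adjusted p = 0.026) and KRT6A at -0.08 ± 0.0259 (adjusted p = 0.0874). The ranges of the resveratrol and combination libraries overlapped for all 10 keratins, beside 3.19% of all genes tested that showed no overlap. In KRT6B 5 of the 6 combination libraries were below the lowest resveratrol library. The KRT6A call was lost in DESeq2 (adjusted p = 0.121) and without resveratrol replicate 3, 4, 5 or 6 or combination replicate 1, 2, 5 or 6 (-0.06 to -0.08, adjusted p from 0.12 to 0.187). KRT5 was not called (-0.08, adjusted p = 0.123), but was without resveratrol replicate 2 (-0.10, adjusted p = 0.0624), combination replicate 3 (-0.09, adjusted p = 0.0672) or combination replicate 4 (-0.09, adjusted p = 0.0898). KRT14 (-0.05), KRT15 (-0.03), KRT4 (-0.03) and KRT17 (0.05) were not called.

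Within replicates 1 to 3 alone, KRT6B was the 1 keratin of these 5 that was called (-0.24, adjusted p = 0.0544), and within replicates 4 to 6 alone all 5 were called. The sum of the 3 KRT6 genes was lower with the combination than with resveratrol by a log2 fold change of -0.11 ± 0.0284 (adjusted p = 0.0221). KRT16 summed with its pseudogenes was also lower (-0.20 ± 0.0451, adjusted p = 0.00452).

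Whether EGCG acted differently in the presence of resveratrol than in its absence was tested as an interaction, the combination minus resveratrol less EGCG minus untreated. No keratin was called in edgeR or in DESeq2, beside 0.265% of all genes tested in edgeR. Unadjusted p-values were under 0.05 for 3 keratins, KRT6B (log2 difference -0.23 ± 0.0826, adjusted p = 0.413), KRT13 (-0.46 ± 0.187, adjusted p = 0.518) and KRT16 (-0.17 ± 0.0748, adjusted p = 0.572). Without combination replicate 3, the KRT13 difference was -0.67 and was called (adjusted p = 0.0532). With all libraries and every gene of at least 1 count in the edgeR fit, KRT6B (-0.23, adjusted p = 0.00165) and KRT13 (-0.46, adjusted p = 0.0562) were called lower. In the main fit, the fall of these 3 keratins between resveratrol and the combination was thus not shown to differ from the effect of EGCG on untreated cells. For KRT6B and KRT13 this depended on the filter. For KRT16 the interaction was called under no setting.

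Against EGCG alone, resveratrol gave 5 lower and 2 higher keratins (55.0% of all genes called, 27.7% higher and 27.3% lower) and the combination 7 lower and 2 higher (57.8% called, 28.7% higher and 29.1% lower). These comparisons share libraries with those above. KRT15 and KRT16 were the higher genes in both, with KRT16 at 0.33 ± 0.0528 for resveratrol against EGCG (adjusted p = 2.61e-06) and 0.12 ± 0.053 for the combination against EGCG (adjusted p = 0.0614). The second of these KRT16 calls was lost without combination replicate 3 (adjusted p = 0.255), without combination replicate 4 (adjusted p = 0.0958 with an unadjusted p of 0.0543) and without EGCG replicate 3 (adjusted p = 0.156). KRT15 was at 0.37 ± 0.104 (adjusted p = 0.00304) and 0.35 ± 0.106 (adjusted p = 0.00575). For the second of these KRT15 values the groups overlapped and the exact permutation p was 0.0823. It was 0.64 in replicates 1 to 3 (adjusted p = 0.000167, edgeR) and 0.05 in replicates 4 to 6 (adjusted p = 0.791). KRT13 was lower with the combination than with EGCG (-0.30 ± 0.138, adjusted p = 0.0619, edgeR), a call that was lost without EGCG replicate 1, 4, 5 or 6 or combination replicate 1, 2, 5 or 6 (-0.22 to -0.29) and in DESeq2. KRT4, at -0.12 for the combination against EGCG, was called lower without combination replicate 3 (-0.31, adjusted p = 0.0112), and KRT13, at 0.21 for resveratrol against EGCG, was called higher without EGCG replicate 4 (0.27, adjusted p = 0.0922) or resveratrol replicate 1 (0.28, adjusted p = 0.068).

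The ratio between partner chains was followed as a description, without a test. The basal pair moved as one, and the log2 ratio of KRT5 to KRT14 FPKM was -0.38 ± 0.0164 (SD, n = 6) in untreated cells, -0.36 ± 0.0285 with EGCG, -0.38 ± 0.0315 with resveratrol and -0.41 ± 0.0271 after both agents. The summed type II chains stood to the summed type I chains at a log2 ratio of 0.38 in untreated, EGCG and resveratrol cells and at 0.33 ± 0.0308 with the combination. KRT16 shifted against its partners. The KRT6 genes together had 11.2 times the FPKM of KRT16 in untreated cells and with EGCG, 7.71 times with resveratrol and 8.29 times with the combination. On the log2 scale this ratio ran from 3.39 to 3.62 in untreated libraries and from 2.88 to 2.99 with resveratrol, without overlap.

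**Figure D4:**
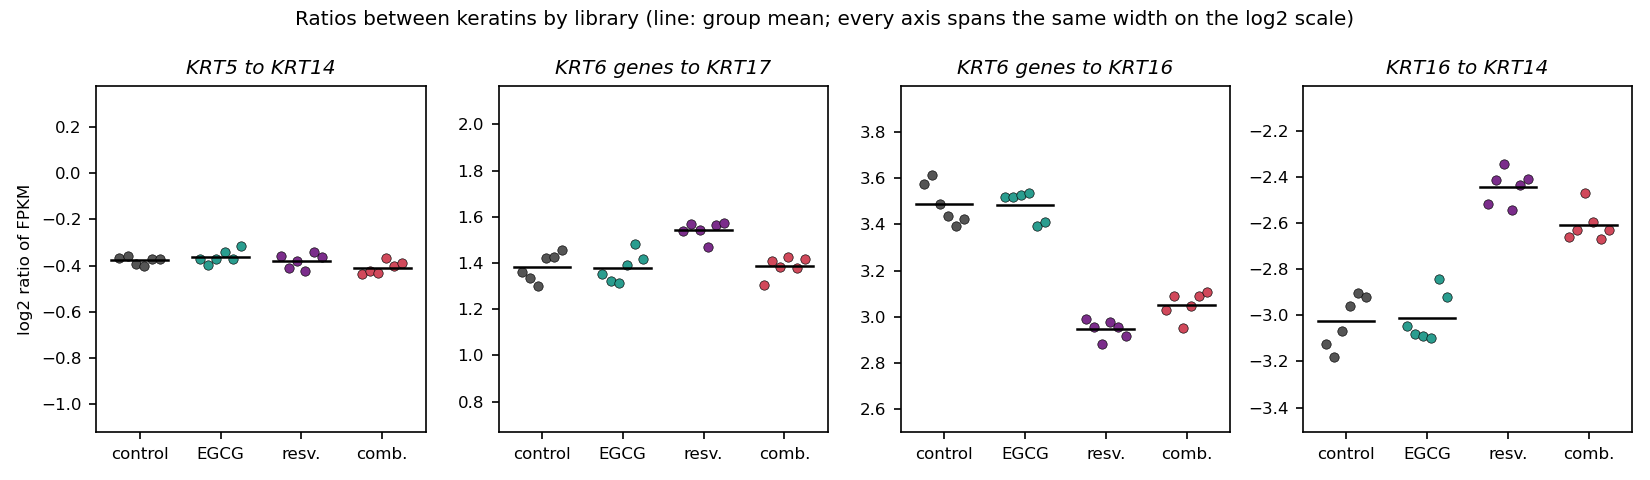
Log2 ratio of FPKM between keratins (vertical axis) in each library by treatment group (horizontal axis), with the group mean as a line. The ratio of KRT5 to KRT14 stays near -0.38 in all groups, whereas the ratio of the KRT6 genes to KRT16 drops from 3.49 in untreated cells to 2.95 with resveratrol and 3.05 with the combination.

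Against KRT17, in contrast, the KRT6 genes together had 2.61 times the FPKM in untreated cells, 2.91 times with resveratrol and 2.61 times with the combination. KRT16 made up 3.23% ± 0.233 of the FPKM of the set in untreated cells, 4.76% ± 0.181 after resveratrol and 4.31% ± 0.184 with the combination. With resveratrol KRT16 (248 ± 12.4 FPKM) stood above KRT6B (206 ± 6.49) without overlap, and with the combination it was at 215 ± 18.1 beside 170 ± 18.1. The order of the 5 most abundant keratins was the same in all 4 groups.

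The treated libraries were also compared within replicates 1 to 3 and within replicates 4 to 6, which differ in mitochondrial share. With resveratrol all 7 calls were made in both sets of replicates. KRT6B and KRT4, which were not called over all 6 replicates, were each called in 1 set. KRT6B was at -0.20 in replicates 4 to 6 (adjusted p = 0.000159) and at -0.0037 in replicates 1 to 3 (adjusted p = 0.973), and KRT4 was at 0.37 in replicates 1 to 3 (adjusted p = 0.0841) and at 0.01 in replicates 4 to 6 (adjusted p = 0.94). With the combination 6 of the 7 lower calls were made in both, and KRT13 was called in replicates 4 to 6 alone. The higher call of KRT15 came from replicates 1 to 3 (0.46, adjusted p = 0.00304, against 0.06 in replicates 4 to 6). KRT4 and KRT16 took opposite directions with the combination. KRT4 had a log2 fold change of 0.57 in replicates 1 to 3 (adjusted p = 0.00759) and -0.29 in replicates 4 to 6 (adjusted p = 0.0331), and KRT16 had 0.25 (adjusted p = 0.000927) and -0.09 (adjusted p = 0.0613).

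The difference between these sets of replicates was itself tested as a term of the fit. It was -0.86 ± 0.21 for KRT4 (adjusted p = 0.279) and -0.35 ± 0.0752 for KRT16 (adjusted p = 0.118), so neither passed the adjustment over all genes, where 0.0129% were called. In untreated cells KRT16 and KRT6B were higher in replicates 4 to 6 than in replicates 1 to 3, by 0.25 (adjusted p = 0.0145) and 0.23 (adjusted p = 0.0901) on the log2 scale, where 0.549% of all genes were called. The part of this split, and of the mitochondrial share that goes with it, in the results for KRT4 and KRT16 was not tested beyond these values.

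**Figure D5:**
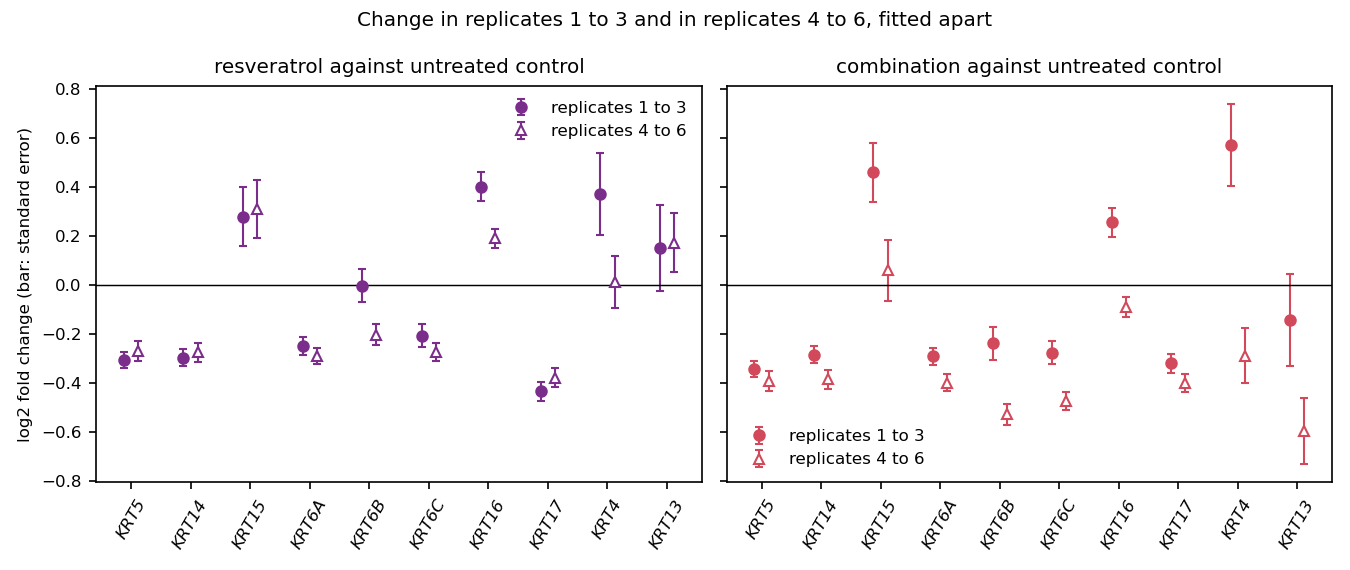
Log2 fold change against untreated cells with its standard error (vertical axis) by gene (horizontal axis), fitted separately in replicates 1 to 3 and in replicates 4 to 6, with resveratrol on the left and the combination on the right. With the combination KRT4 lies at 0.57 in replicates 1 to 3 and -0.29 in replicates 4 to 6, while KRT5, KRT14, KRT6A, KRT6C and KRT17 lie below 0 in both sets with both treatments.

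Other keratins were examined as a list of all further protein-coding genes named KRT plus a number, of which 13 of 45 could be tested. With resveratrol 3 were higher and 3 lower (median -0.03 beside 0.00371 over all genes), where 56.9% of all genes tested were called. With the combination 4 were higher and 4 lower (median -0.07 beside -0.00151), where 59.8% were called. KRT80, a type II keratin, was higher with resveratrol (0.65 ± 0.0319, adjusted p = 7.02e-19) and the combination (0.76 ± 0.0319, adjusted p = 6.12e-21). KRT23, a type I keratin, was lower with both (-0.96 ± 0.138, adjusted p = 3.48e-07, and -1.58 ± 0.156, adjusted p = 7.84e-11). With EGCG alone 2 of these keratins were called, where 1.76% of all genes were, with the hair keratin KRT81 at -0.65 ± 0.0588 (adjusted p = 1.05e-09) and the simple epithelial keratin KRT8 at 0.16 ± 0.0309 (adjusted p = 0.00215).

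Genes of the suprabasal layers and of the cornified envelope were mostly lower. Of 18 listed genes 12 were tested, and 9 were lower and 1 higher with resveratrol (median -0.42 beside 0.00371 over all genes), where 28.0% of all genes tested were lower. With the combination 11 were lower and 1 higher (median -0.77 beside -0.00151), where 29.9% were lower, and none was called for EGCG (median -0.08). The envelope precursors SPRR3 and SPRR2A were at -0.94 ± 0.132 (adjusted p = 2.05e-07) and -0.84 ± 0.168 (adjusted p = 6.58e-05) for resveratrol, and at -1.23 ± 0.14 (adjusted p = 1.98e-09) and -1.33 ± 0.186 (adjusted p = 1.58e-07) with the combination. SBSN (suprabasin) was at -0.60 ± 0.112 (adjusted p = 2.56e-05) and -1.28 ± 0.125 (adjusted p = 4.81e-11). The 1 gene that was higher with both was TGM1, the transglutaminase that cross-links the envelope (0.18 and 0.21). The suprabasal keratins KRT1 and KRT10, which are also in the list of other keratins, were not called with resveratrol (0.02 and -0.03) and were lower with the combination (-0.52 and -0.32).

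Among the proteins that anchor keratin filaments at desmosomes and hemidesmosomes, all 17 listed genes were tested. For resveratrol 7 were higher and 7 lower (median 0.09), beside 28.9% and 28.0% of all genes tested. For the combination 6 were higher and 7 lower (median 0.05), beside 29.9% of all genes in each direction, and none was called for EGCG. The desmosomal cadherins DSC2 (0.45 ± 0.059, adjusted p = 4.36e-08) and DSG3 (0.42 ± 0.0437, adjusted p = 4e-10) were higher with resveratrol. Plectin, which ties filaments to hemidesmosomes, and the desmosomal plaque protein PKP3 were lower, with PKP3 at -0.40 ± 0.0339 (adjusted p = 1.86e-12) and PLEC at -0.41. The integrin chains of the hemidesmosome, ITGA6 (-0.29) and ITGB4 (-0.19), were lower too. Other genes of the list went the other way from those named. DST, also of the hemidesmosome, was higher with resveratrol (0.14, adjusted p = 0.00628, edgeR), and the desmosomal cadherin DSG2 was lower (-0.08, adjusted p = 0.055).

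Transcription factors of squamous cells moved in both directions. Of 23 tested, 9 were higher and 5 lower with resveratrol (median 0.12), where 28.9% and 28.0% of all genes tested were higher and lower, 11 were higher and 6 lower with the combination (median 0.09, 29.9% of all genes in each direction), and 2 were lower with EGCG (1.76% of all genes called, OVOL1 at -0.46 ± 0.121, adjusted p = 0.0431, and TFAP2A at -0.15 ± 0.043, adjusted p = 0.0699). GRHL3, a factor of epidermal barrier formation, rose by 1.09 ± 0.0988 on the log2 scale (adjusted p = 1.19e-11) and ZNF750, a factor of terminal differentiation, by 0.80 ± 0.0978 (adjusted p = 1.12e-08). FOSL1, a subunit of AP-1, fell by 0.82 ± 0.0365 (adjusted p = 4.54e-20). TP63, the master regulator of basal squamous cells, was at -0.04 with resveratrol and was not called, and was slightly higher with the combination (0.09). AHR, the aryl hydrocarbon receptor, was at 0.58 with resveratrol and 0.66 ± 0.0627 after both agents (adjusted p = 2.59e-11).

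Patterns across the 24 libraries were compared as Pearson correlations of log2 CPM. These are descriptions without a test, since the libraries share treatments and scaling. KRT5 followed KRT14 at r = 0.987 and KRT6A at r = 0.984. KRT16 and KRT17 ran against each other over all libraries (r = -0.56) but together within groups (r = 0.41 after the group means were removed). The genes other than keratins with the pattern most like a member were ESPL1 for KRT5 (r = 0.965) and for KRT6A (r = 0.977), UTP4 for KRT14 (r = 0.967), CLPTM1L and S100A2 for KRT17 (r = 0.980 and 0.978), AQP3 and H19 for KRT6C (r = 0.952 and 0.944) and TP73 and SBSN for KRT6B (r = 0.871 and 0.868). GJB6 was the closest to KRT16 (r = 0.892) and, with GOLGA2P7, to KRT15 (r = 0.83 for both). For the mucosal pair they were KLK10 and PI3 for KRT4 (r = 0.862 and 0.787) and LY6D and TP73 for KRT13 (r = 0.783 and 0.782). Among the lowest correlations were those with MIA2 for KRT5 (r = -0.970) and KRT14 (r = -0.967) and with SLFN5 for KRT17 (r = -0.967).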

How the data were processed

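RNA was made into TruSeq stranded mRNA libraries and sequenced as pairs of 50-base reads. Per the labels and methods, reads were trimmed with Trimmomatic 0.36 and aligned to GRCh38 with HISAT2 2.0.4. The counting program, annotation and strand setting are not given in the sources used here. The authors deposited raw counts per gene, without normalization, which were used for all tests. Normalized counts deposited beside them (a signal per gene) equal the counts divided by 1 size factor per library. The deposited FPKM equal the normalized counts divided by 1 fixed value per gene. They served for levels within and between genes.

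One edgeR model (version 4.0.16, R 4.3.3) was fitted to the counts of the 24 libraries, with TMM scaling, filterByExpr and the quasi-likelihood test. A call required a Benjamini-Hochberg adjusted p under 0.1 over 15476 genes and p under 0.05. Single keratins were also tested by exact permutation of log2 CPM with a prior count of 2. Alternatives included DESeq2 1.42.0, other scalings and filters, summed copies and left-out libraries. The fits were tested on simulated data. Sums with pseudogenes and the test of replicates 4 to 6 against 1 to 3 were added after the data were seen. The keratins and lists were chosen with earlier results of these data known. Genes to be named were all members, at most 4 called genes a list and comparison with the largest changes, and the 2 most like and 1 least like each member by correlation. PLEC, TGM1, KRT1, KRT10, ITGA6, ITGB4, DST, DSG2, TP63 and AHR were in part chosen after their values were seen. Coordinates and 50-base windows came from GENCODE on GRCh38. Replicate numbers were not used as pairs in the main fit (36 same-numbered pairs, r from -0.0111 to 0.131). Some coding sequences and 1 correlated gene are not reported here.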

Additional observations from a re-analysis of the deposited data

Results flagged for a closer look

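Among 44 sets of 6 libraries (10 keratins and their share of counts in 4 groups), Dixon's test set 2 values apart, both in combination replicate 3, and chance gives about 1 in 20. KRT4 was at 183 normalized counts there, with the next library at 118, and KRT16 was at 5391, with the next at 4709. The same library was the highest of its group for all 10 keratins, with KRT5 at 36973, KRT14 at 27230 and KRT6A at 33365, and for the share of counts that the set held (1.64%). Without it, KRT15 against untreated cells and KRT16 against EGCG lost their calls, and KRT4 against EGCG (-0.31), KRT5 against resveratrol (-0.09) and the KRT13 interaction (-0.67) were called lower. The reason was not tested.

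In the main fit, no keratin of the set was called by the interaction test. The effect of EGCG differed in the presence and absence of resveratrol, by that test, for 3 genes of the lists around the set. These were 2 of 12 suprabasal and cornification genes and 2 of 13 other keratins, with KRT10 in both lists. None of the 17 filament anchors, 23 squamous regulators or 10 pseudogenes was called, beside 0.265% of all genes tested. The cornified envelope gene SPRR1B had a difference of -0.47 ± 0.0895 on the log2 scale (adjusted p = 0.00958, edgeR), KRT10 of -0.24 ± 0.0488 (adjusted p = 0.0185) and KRT81 of 0.35 ± 0.083 (adjusted p = 0.0742).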

How the results depend on the processing

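Each of 70 keratin values (10 genes in 7 comparisons) was computed under other settings and with each library left out. The lower calls of KRT5, KRT6A, KRT6C, KRT14 and KRT17 with resveratrol and the combination, and the KRT15 rise with resveratrol, held in all of these, with KRT14 and KRT17 counted within sums where sums were made. DESeq2 kept 68 of 70 sides of the threshold and DESeq2's size factors 70. With library size alone as scaling, 68.3% in place of 50.7% of all resveratrol calls were higher (64.6% with the combination), 2 keratins in place of 1 were higher with the combination (KRT16 at 0.16 was added), and the lower calls named above held. KRT13 then lost its lower call with the combination (-0.27, adjusted p = 0.085) and against EGCG (-0.23, adjusted p = 0.161), and KRT4 was higher with resveratrol (0.26, adjusted p = 0.0765). A block for the replicate number added calls for KRT6B with resveratrol (-0.11, adjusted p = 0.0597) and for KRT5 between the combination and resveratrol (-0.08, adjusted p = 0.0735) and changed no other. In the labels, same-numbered samples share only the number. In 30 of 72 checks, a library matched best with the library of its own number in another group. Whether same-numbered libraries have a common origin was not tested.

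KRT16 was also counted within sums. The sum with KRT14 and KRT17 was at -0.28 with resveratrol, -0.31 with the combination, and -0.24 and -0.27 for these against EGCG. KRT14 and KRT17 hold most counts of that sum, so its sign does not give the direction of KRT16. With the pseudogenes added to that sum the values were -0.28, -0.32, -0.23 and -0.27. The sum of KRT16 with its own pseudogenes alone was at -0.12 with the combination and -0.028 for the combination against EGCG. The KRT16 row alone was at 0.08 and 0.12. The summed pseudogenes had a mean of 3641 normalized counts untreated, 3259 with EGCG and 2753 with the combination. The sign of this sum thus does not give the direction of KRT16 either. In replicates 4 to 6 alone KRT16 was at -0.091 with the combination and -0.013 against EGCG, and KRT4 at -0.29 with the combination.

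The count of higher keratins was 1 in place of 2 for resveratrol against untreated cells under all 3 sums, for resveratrol against EGCG under both sums with KRT14 and KRT17, and for the combination against EGCG under all 3 sums and at an adjusted p under 0.05. For the combination against untreated cells 3 keratins were higher in replicates 1 to 3. None (0) was higher in replicates 4 to 6, either against untreated cells or against EGCG. Fewer keratins were lower for the combination against resveratrol in replicates 1 to 3 (1 in place of 5). The interaction gave 2 lower keratins with every gene of at least 1 count tested (KRT6B and KRT13) and 1 in replicates 4 to 6 (KRT6B). With single libraries left out, higher counts ran from 0 to 2 for the combination against untreated cells and from 1 to 2 against EGCG, and lower counts of the interaction from 0 to 1. KRT4, KRT13 and KRT15 have few counts, which limits how small a change can be called. Causes were not tested.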
